A study of Mus musculus with 3 samples.

Results

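Transcripts of glucose uptake, glycolysis, the hypoxia response and sterol synthesis were measured in undifferentiated mouse embryonic stem (ES) cells of the established line R1. The list held 33 genes: 16 for glucose transporters and glycolytic enzymes, 3 linked to hypoxia, and 14 for cholesterol synthesis and its control. All probe sets that the platform annotation pairs with these genes were taken, 83 of the 45101 on the array; 79 were paired with 1 listed gene alone and 4 with several genes. Those 79 represented 31 of the 33 genes. Gpi1 and Eno1 were paired with no probe set in the annotation used, so their expression was not analysed here. Their promoter windows were counted with those of the other members. Each of the 3 arrays carried RNA of 1 culture condition: untreated cells, BMP4 (20 ng/ml, 4 h), and noggin (100 ng/ml, 4 h), a secreted antagonist that binds BMPs. No time was given in the labels for the untreated cells. With 1 array per condition there is no replicate error and no test, so every difference is described by its size, and the number of arrays limits the precision.

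Glycolysis turns glucose into pyruvate and, through lactate dehydrogenase, lactate; pluripotent cells are known for a high glycolytic flux. Under low oxygen, hypoxia-inducible factors bind a short response element and raise the genes of many of these steps, together with Pdk1, Bnip3 and Vegfa. Cholesterol is built from acetyl-CoA through mevalonate and squalene, and SREBP factors, held in the endoplasmic reticulum by Insig proteins while sterols are plentiful, raise the whole pathway when sterols run low. SREBPs act at sterol regulatory elements beside other factors, of which NF-Y, the factor of the CCAAT box, is the textbook example.

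Promoter stretches from RefSeq (build GRCm38.p6) are shown for 8 members, because they hold matches to short motifs linked to the control of these pathways. Whether these matches act in the control of the genes was not tested. RefSeq windows running from 250 bases before to 50 after a transcript start were found for 28 of the 33 members, 39 windows in all. Slc2a3, Sqle, Fdps, Fdft1 and Stard4 had none. The first 4 stretches belong to glucose and hypoxia-linked genes, and their capitals mark ACGTG, the core of the hypoxia response element, on either strand, where it reads CACGT on the other. They lie on chr4:119108691-119108731 (plus strand) for Slc2a1, chr7:46845641-46845792 (plus) for Ldha, chrX:106186932-106186991 (plus) for Pgk1 and chr7:138909591-138909632 (minus) for Bnip3, all upstream of the annotated start.
Slc2a1: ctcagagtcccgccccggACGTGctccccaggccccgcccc
Ldha: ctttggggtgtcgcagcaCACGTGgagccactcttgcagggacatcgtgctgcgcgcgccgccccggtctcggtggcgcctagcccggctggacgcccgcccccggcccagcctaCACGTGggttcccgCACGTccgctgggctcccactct
Pgk1: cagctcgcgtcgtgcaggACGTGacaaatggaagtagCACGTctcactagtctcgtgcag
Bnip3: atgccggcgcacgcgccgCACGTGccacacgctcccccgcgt

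ACGTG was found in 45.5% of the 22 windows of glucose and glycolysis members and in 2 of the 5 windows of hypoxia-linked members. It was found in 3 of the 12 windows of sterol members (25%) and in 19.6% of all 32851 RefSeq windows. The E-box CACGTG contains ACGTG on both strands, and it was found in 7.15% of all windows. In the member windows the E-box was found in 1 of the 22, 1 of the 5 and 3 of the 12, in the same order. The sterol stretches below show the CCAAT box (ATTGG on the other strand) in capitals, and that of Hmgcs1 also the sterol regulatory element, searched as TCACNCCAC. They lie on chr13:119690157-119690328 for Hmgcs1, chr5:28071178-28071218 for Insig1, chr13:8885543-8885605 for Idi1 and chr10:76531525-76531565 for Lss, all on the plus strand and upstream of the start.
Hmgcs1: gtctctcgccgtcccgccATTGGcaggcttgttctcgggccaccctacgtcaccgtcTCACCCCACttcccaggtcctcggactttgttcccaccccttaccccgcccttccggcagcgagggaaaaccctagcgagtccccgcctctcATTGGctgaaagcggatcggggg
Insig1: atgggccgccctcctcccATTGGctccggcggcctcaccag
Idi1: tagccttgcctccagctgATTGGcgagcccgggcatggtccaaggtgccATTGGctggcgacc
Lss: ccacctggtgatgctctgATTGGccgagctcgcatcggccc

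The CCAAT box was present in 10 of the 12 windows of sterol members, so that each of the 10 sterol genes with a window held at least 1. It was found in 37.4% of all windows and in 10 of the 22 windows of glucose and glycolysis members. TCACNCCAC was found in 1 of the 12 sterol windows, that of Hmgcs1, in 1 window of Aldoc, and in 1.24% of all windows. A match describes the letters of these windows and nothing about binding in these cells.

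Values are log2 expression values computed by the authors with RMA, so that a difference of 1 is 2-fold. Where a gene had several probe sets, the one whose mean across arrays was highest stood for it, and the gene was kept if this one exceeded 3.44, the median of all values, on at least 1 array. All 31 members measured passed this floor on all 3 arrays, so none was kept through 1 condition. Of their 79 probe sets 72 lay above the floor, again on all 3 arrays. A size of 1.2-fold, 0.26 on the log2 scale, was used to count differences.

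Differences from the untreated array were small in both pathways. With BMP4, 0 of the 31 members reached 1.2-fold in either direction, where 3.83% of the 11595 genes above the floor did. With noggin the count was again 0 of 31, against 2.79% of all genes. Such background shares amount to about 1 gene in a list of this length, so a count of 0 does not set the members apart. The members' differences ran from -0.19 to 0.14 with BMP4 and from -0.14 to 0.20 with noggin. On the same arrays Id1, a direct BMP target, measured 8.78 untreated, 11.54 with BMP4 and 8.59 with noggin.

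**Figure D1:**
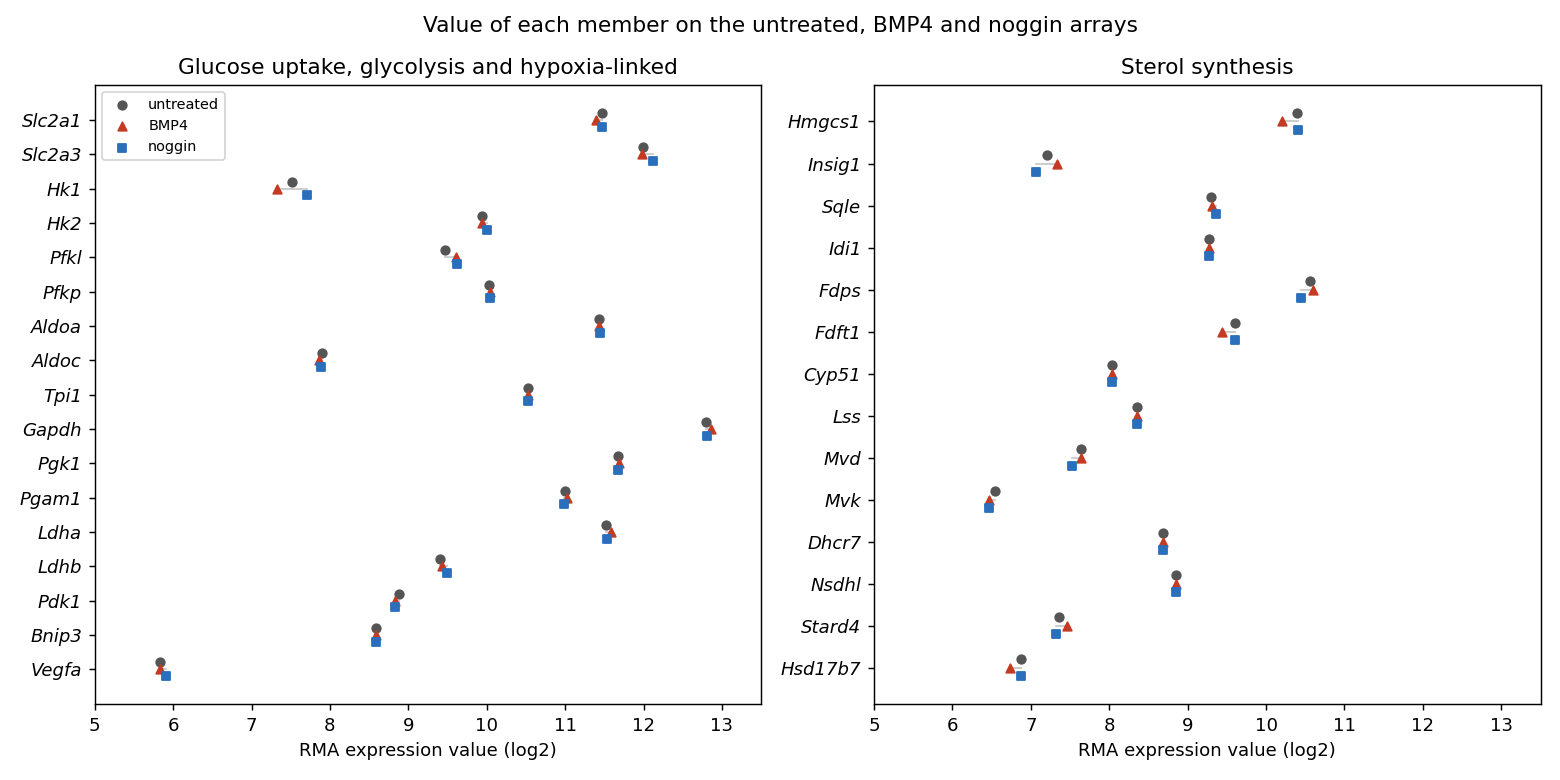
Log2 RMA value of the representative probe set of each of the 31 members on the untreated (circle), BMP4 (triangle) and noggin (square) arrays, glycolysis and hypoxia-linked genes on the left and sterol genes on the right. The 3 symbols of a gene nearly coincide for most genes and lie furthest apart for Hk1, from 7.32 to 7.71; positions of different genes along the axis come from different probes and are not comparable.

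Glucose entry was read from 2 transporters. Slc2a1, the widespread transporter GLUT1, measured 11.47 untreated, 11.40 with BMP4 and 11.47 with noggin. Slc2a3, the high-affinity transporter GLUT3, measured 11.99, 11.98 and 12.12 in the same order. Noggin thus gave the higher value for Slc2a3, by 0.13, while its other probe sets gave differences from -0.39 to 0.03.

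Hexokinases, which trap glucose in the cell by phosphorylation, were represented by Hk1 and Hk2. Hk1 measured 7.52 untreated, 7.32 with BMP4 and 7.71 with noggin. Its differences of -0.19 and 0.20 lay at either end of the glycolytic list, which no other glycolytic member did. Hk2, the isoform induced in growing cells, measured 9.94, 9.94 and 10.00. Phosphofructokinase commits sugar to glycolysis, and its liver-type subunit gene Pfkl measured 9.47 untreated, 9.61 with BMP4 and 9.62 with noggin. Both probe sets of Pfkl above the floor were higher on both treated arrays, by 0.09 to 0.16. The platelet-type subunit gene Pfkp measured 10.03, 10.04 and 10.04 by its representative probe set.

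The enzymes of the lower part of the pathway were described next. Aldoa, the main aldolase, measured 11.43, 11.43 and 11.44 on the untreated, BMP4 and noggin arrays, and Aldoc, a brain-type aldolase, 7.90, 7.86 and 7.88. Triose phosphate isomerase (Tpi1) had the value 10.52 on all 3 arrays. Gapdh, which makes the first high-energy phosphate of the pathway, measured 12.80, 12.86 and 12.81 by the middle one of the array's control probe sets, the only ones paired with Gapdh alone. None of these 4 genes differed by more than 0.05 by its representative probe set.

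Phosphoglycerate kinase (Pgk1) measured 11.68 untreated, 11.69 with BMP4 and 11.68 with noggin, and phosphoglycerate mutase (Pgam1) 11.00, 11.02 and 10.99. Ldha, the lactate dehydrogenase subunit that favours lactate formation, measured 11.52, 11.59 and 11.53. Ldhb, the subunit that favours the return to pyruvate, measured 9.41, 9.43 and 9.49. Ldha was thus highest with BMP4, by 0.07, and Ldhb highest with noggin, by 0.08 over untreated, both below 0.13 and 0.11, the SDs among probe sets of a gene described further on.

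Taken as a list, 7 of the 14 glucose and glycolysis members were higher with BMP4, 3 lower and 4 within 0.005 of the untreated value, with a median difference of 0.01. Among all genes above the floor 23.4% lay above and 34.1% below their untreated value, and the median was 0.00. With noggin 9 of the 14 were higher and 2 lower (median 0.01), where 25.6% of all genes were higher and 34.2% lower. After a loess correction of the differences on mean level, 12 were higher and 2 lower with noggin, and 33.6% and 33% of all genes. These are counts of very small differences. Both comparisons share the untreated array.

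The hypoxia-linked members were 3 genes. Bnip3, a mitophagy receptor, had the value 8.59 on all 3 arrays. Pdk1, the kinase that shuts pyruvate dehydrogenase off, measured 8.88 untreated and 8.83 with either treatment, while its probe set 1423748_at differed by -0.13 with BMP4 and 0.09 with noggin. Vegfa, the angiogenic growth factor, measured 5.83, 5.83 and 5.91. The medians of the 3 genes were 0.00 in both comparisons with the untreated array. With noggin the median size of their differences, whatever the sign, was 0.05. It was 0.01 for the glycolytic and for the sterol members, and 0.02 for all genes above the floor. With BMP4 it was 0.00 for the 3 genes and 0.02 for all genes. The 0.05 is the value of Pdk1 alone, whose probe set 1423748_at had the opposite sign. The 2 genes of the 3 with ACGTG in a window, Bnip3 and Vegfa, were equal to 2 decimals without and with BMP4. With noggin Vegfa differed by 0.07, and its other probe set, 1451959_a_at, by -0.05.

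In sterol synthesis the members that feed carbon into the pathway were described first. Hmgcs1, which forms HMG-CoA, measured 10.39 untreated, 10.20 with BMP4 and 10.41 with noggin. Mevalonate kinase (Mvk) measured 6.54, 6.47 and 6.47, and mevalonate diphosphate decarboxylase (Mvd) 7.64, 7.64 and 7.53. Idi1, the isomerase that makes the reactive isoprene unit, had 9.27 on all 3 arrays. Its other probe set, 1423804_a_at, measured 7.87, 7.87 and 7.66, and its -0.21 with noggin was the lowest value among the sterol probe sets above the floor. Farnesyl diphosphate synthase (Fdps) measured 10.56, 10.60 and 10.44. Hmgcs1 was therefore lowest with BMP4 and Fdps and Mvd lowest with noggin, with sizes of 0.11 to 0.19.

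From squalene onward the values lay as close together. Fdft1, squalene synthase, measured 9.60 untreated, 9.44 with BMP4 and 9.60 with noggin, and Sqle, the squalene epoxidase that is a control point of the pathway, 9.30, 9.31 and 9.36. Lanosterol synthase (Lss) had 8.36, lanosterol demethylase (Cyp51) 8.04, the sterol dehydrogenase gene Nsdhl 8.85 and the last enzyme, Dhcr7, 8.68, each on all 3 arrays. Hsd17b7, a sterol ketoreductase, measured 6.87, 6.73 and 6.87. By these representative probe sets Lss, Cyp51, Nsdhl and Dhcr7 were equal to 2 decimals, while the other probe set of Cyp51 above the floor, 1422533_at, differed by -0.09 with BMP4 and -0.08 with noggin.

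The remaining 2 sterol members act outside the chain of enzymes. Insig1, the sterol-responsive anchor of the SREBP complex, measured 7.20 untreated, 7.33 with BMP4 and 7.07 with noggin. Stard4, a carrier that moves sterol between membranes, measured 7.36, 7.46 and 7.32. By these probe sets both were higher with BMP4 and lower with noggin than without treatment. Insig1 had no other probe set above the floor, and the 2 others of Stard4 gave -0.03 and 0.00 with BMP4, so its higher value was not shared. Among the 14 sterol members 4 were higher with BMP4, 4 lower and 6 within 0.005, with a median of 0.00. With noggin 2 were higher, 5 lower and 7 within 0.005, again with a median of 0.00; after the loess correction 7 were higher and 5 lower, so the balance of signs depends on the scaling.

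**Figure D2:**
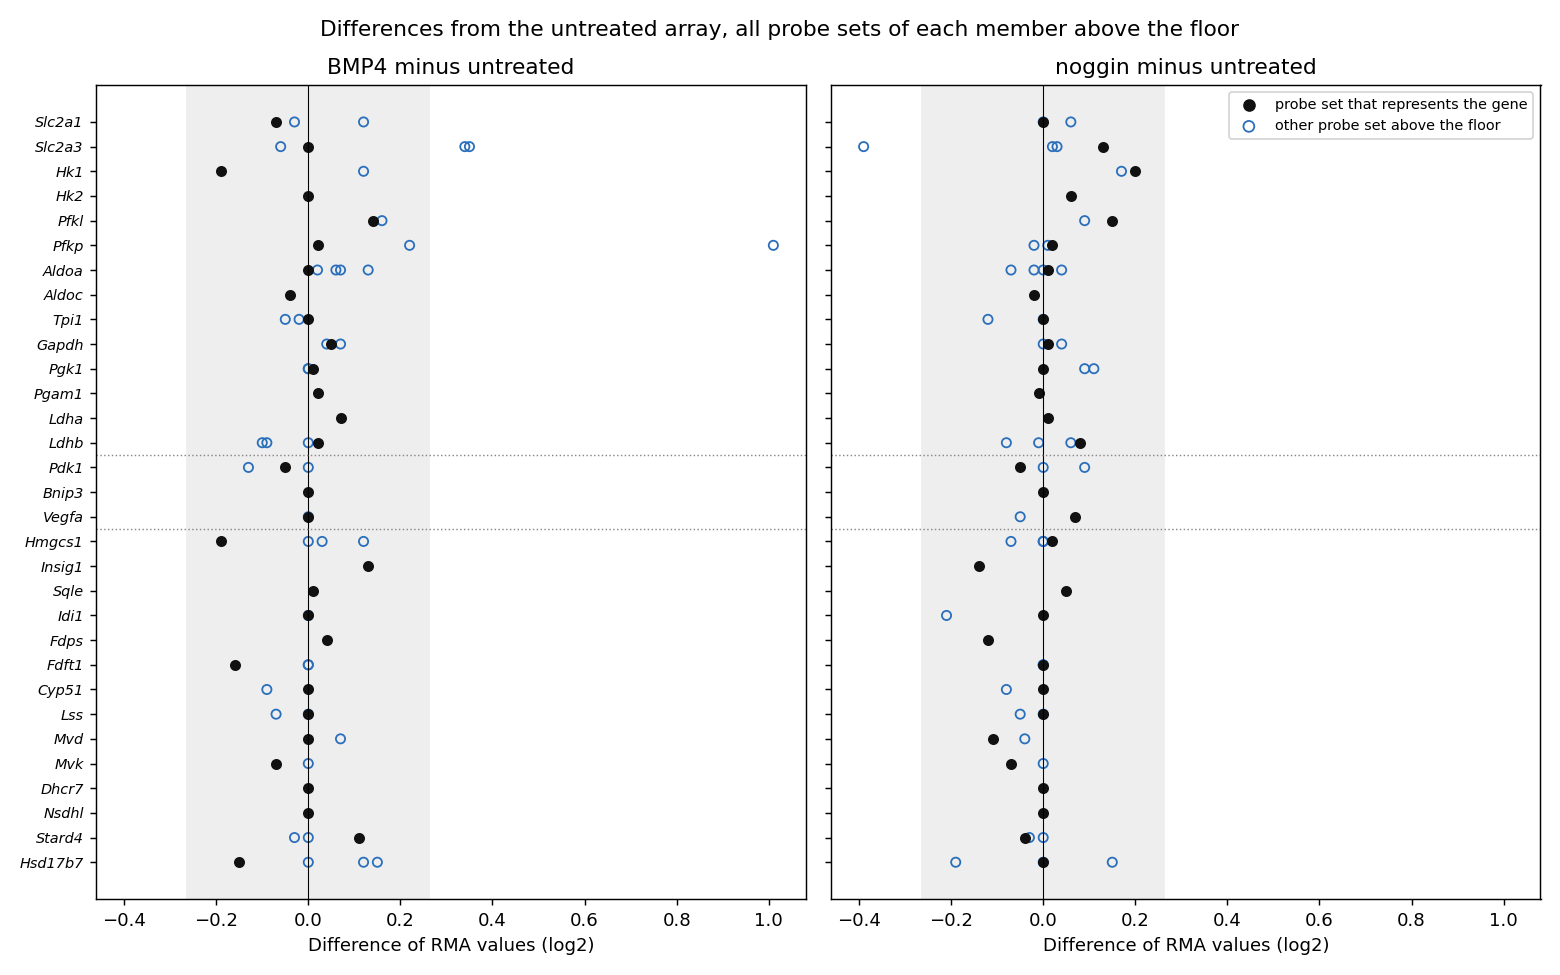
Difference from the untreated array (log2) for every probe set above the floor of each member, with BMP4 on the left and noggin on the right; filled points are the representative probe sets, open points the others, the grey band spans 1.2-fold in either direction, and dotted lines part glycolysis, hypoxia-linked and sterol genes. All filled points lie inside the band, and the points outside it are 2 probe sets of Slc2a3 and 1 of Pfkp with BMP4, and 1 of Slc2a3 with noggin.

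Equal values were spread unevenly over the probe sets of the pathways. Of the 30 sterol probe sets above the floor 11 (36.7%) had the same deposited value on all 3 arrays, within 1e-06, and of the 36 glycolytic probe sets 1 (2.78%) did, against 24.3% of all 20135 probe sets of single genes above the floor. RMA summarises the probes of a set by median polish, which with few arrays gives exact ties, so a value of 0.00 does not show that a transcript did not differ. By gene 4 of 14 sterol members (28.6%) were tied on all 3 arrays within 1e-06, and 1 of 14 glycolytic members, Tpi1. Among all genes above the floor 24.6% were tied, so the sterol share by gene was close to the background. Idi1 differed by more than 1e-06, though its printed values are equal.

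When BMP4 was set against noggin, the opposite ends of BMP signalling in the design, 2 of the 31 members reached 1.2-fold, where 6.63% of all genes did. Hk1 was 1.31-fold lower with BMP4 than with noggin, a difference of -0.39, and Insig1 was 1.2-fold higher, a difference of 0.27. The second probe set of Hk1 gave -0.05, and the average of both -0.22, short of 1.2-fold. Averaging put Pfkp past it instead, at 0.41, through 1437759_at, which was 2-fold higher with BMP4 than with noggin. Of Slc2a3 the probe set 1427770_a_at was 1.66-fold higher in the same comparison, at 0.73. The medians were -0.01 for the glycolytic members and 0.00 for the hypoxia-linked and sterol members, and 0.00 for all genes. By representative probe sets Fdps (0.17) and Stard4 (0.14) were next above in sterol synthesis, while Hmgcs1 (-0.21), Fdft1 (-0.17) and Hsd17b7 (-0.15) were below. The other probe sets above the floor gave 0.00 to 0.12 for Hmgcs1, 0.00 for Fdft1, 0.00 to 0.31 for Hsd17b7 and 0.00 for Stard4. Neither these lower values nor the higher one of Stard4 were shared by other probe sets of the same gene. The count of 2 of 31 is close to the share among all genes.

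Probe sets of the same gene often differed in the size or the sign of the difference. The spread among probe sets of a gene within these arrays was expressed as the SD of their differences around the gene's mean. Such an SD leaves out variation between cultures and may include differences between transcripts of a gene, so it does not stand for replicate error. It came to 0.15 with BMP4 and 0.09 with noggin across the 62 probe sets of the 21 members that had several above the floor. Over all 5141 such genes it was 0.13 and 0.11. Probe sets of the same member gave differences of both signs in 7 of the 21 genes with BMP4 (33.3%) and in 8 with noggin (38.1%), against 26.5% and 24.7% of all genes.

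Pfkp showed the widest gap. Its probe set 1437759_at measured 6.27 untreated, 7.28 with BMP4 and 6.28 with noggin, a 2.02-fold higher value with BMP4. The probe set 1430634_a_at measured 8.33, 8.54 and 8.31, a difference of 0.22 with BMP4, and the representative 1416069_at differed by 0.02. All 3 were higher with BMP4, and only 1437759_at passed 1.2-fold. Its 2.02-fold value was the largest among the 72 member probe sets.

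Probe sets of Slc2a3 fell into 2 pairs with BMP4. The names of Affymetrix probe sets end in _s_at or _x_at where probes may also match transcripts of other genes, and in _a_at where they match several transcripts of 1 gene. The probe set 1421924_at measured 8.98 untreated, 9.34 with BMP4 and 9.01 with noggin, and 1427770_a_at measured 7.81, 8.15 and 7.42. Both were higher with BMP4, by 0.35 and 0.34. The 2 others, 1437052_s_at and 1455898_x_at, had higher untreated values, 11.99 and 11.11, and differed by 0.00 and -0.06 with BMP4. The part of the probe set type was not tested. With noggin 1427770_a_at stood apart at -0.39, and the rest lay between 0.02 and 0.13.

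Hmgcs1, the gene with the sterol element printed above, had 4 probe sets above the floor. With BMP4 they gave -0.19, 0.12, 0.03 and 0.00, so the lower value of the representative probe set was not shared. Hsd17b7 gave -0.15, 0.12, 0.15 and 0.00. For Hk1 the second probe set, 1420901_a_at, measured 6.30 untreated, 6.42 with BMP4 and 6.47 with noggin, which is higher with BMP4 where the first was lower. Both probe sets of Hk1 were higher with noggin, by 0.20 and 0.17. Gapdh, Pfkl and Vegfa were among the genes whose probe sets differed by at most 0.03 from one another with BMP4.

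**Figure D3:**
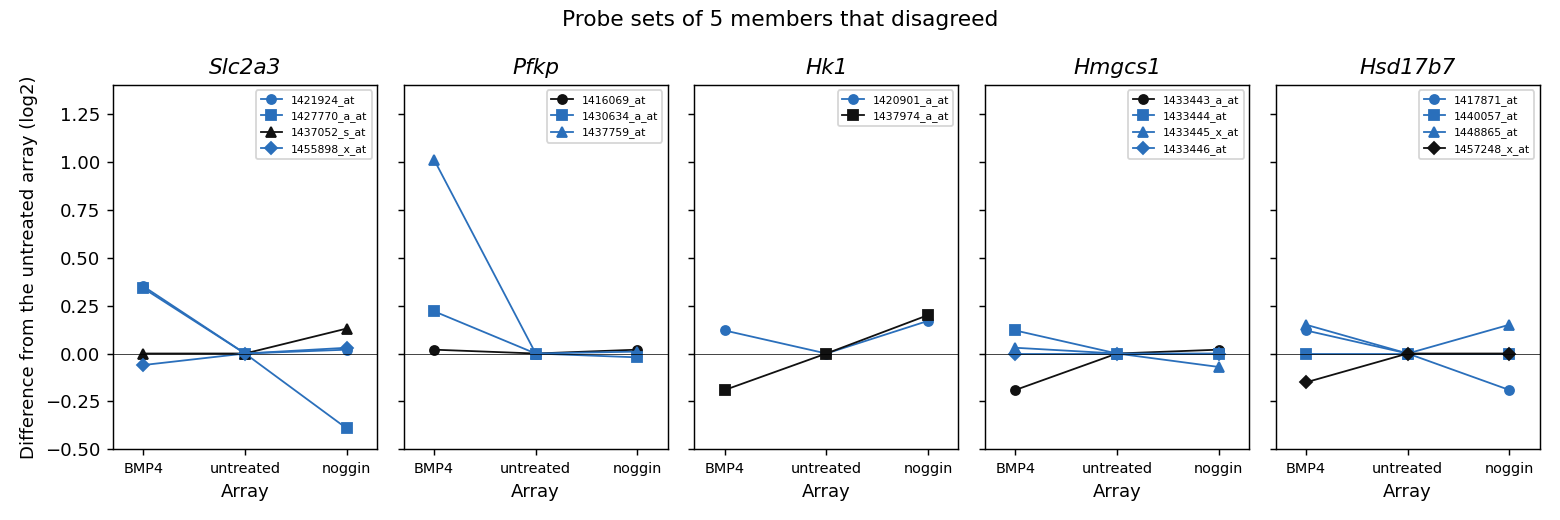
Difference from the untreated array (log2, 0 for the untreated array by construction) of each probe set above the floor of Slc2a3, Pfkp, Hk1, Hmgcs1 and Hsd17b7 on the BMP4 and noggin arrays; black lines are representative probe sets and blue lines the others. The lines of a gene fan out on both treated arrays: with BMP4 from 0.02 to 1.01 for Pfkp and from -0.06 to 0.35 for Slc2a3, and with noggin from -0.39 to 0.13 for Slc2a3 and from -0.19 to 0.15 for Hsd17b7.

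Counted by probe set, 3 of the 36 glycolytic ones passed 1.2-fold upwards with BMP4 and 0 downwards, where 3.39% of all probe sets above the floor were higher and 2.1% lower. These 3 were the probe sets of Pfkp and Slc2a3 already described. With noggin 1 of the 36, of Slc2a3, was at least 1.2-fold lower, against 2.81% of all. Among the 30 sterol probe sets 0 reached 1.2-fold in either comparison with the untreated array, and the 6 hypoxia-linked ones likewise. With noggin 12 of the sterol probe sets were lower, 3 higher and 15 within 0.005, where 35.9% of all probe sets were lower and 24.5% higher. The lower share of the sterol probe sets, 12 of 30, is close to that background.

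**Figure D4:**
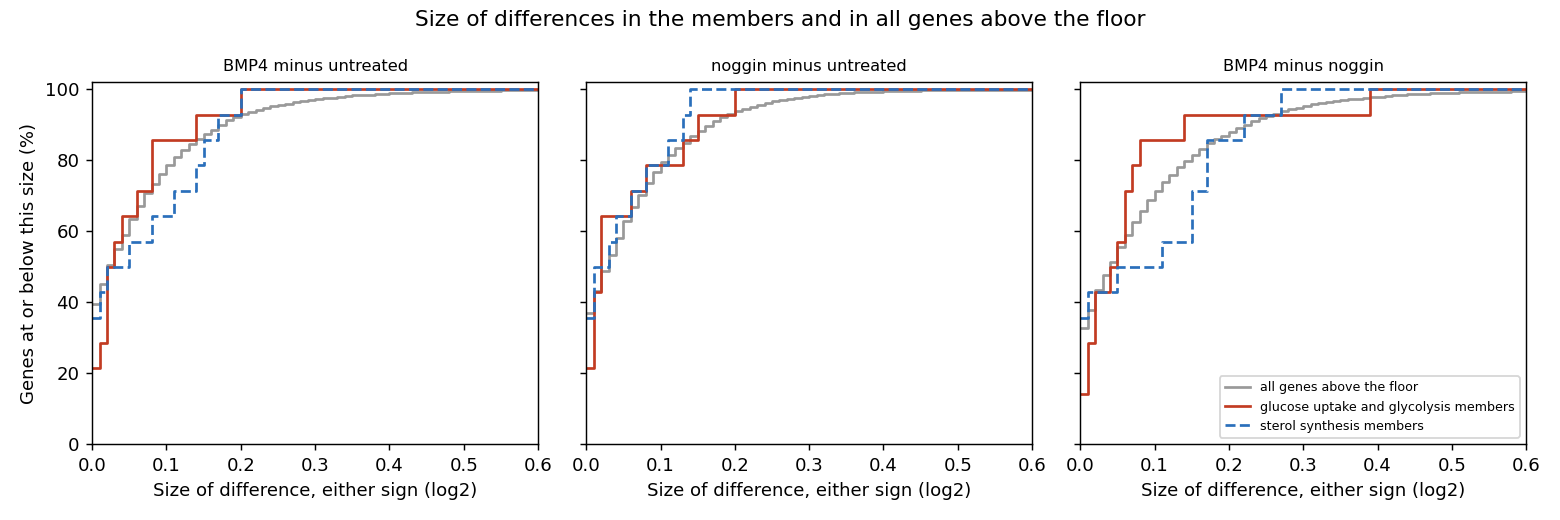
Share of genes (%) whose difference has at most the size on the horizontal axis (log2, either sign), for all 11595 genes above the floor (grey), the 14 glucose and glycolysis members (red) and the 14 sterol members (dashed blue), in each of the 3 comparisons. Both member curves reach 100% by 0.20 in the comparisons with untreated cells. The sterol curve runs below the grey one over the middle sizes for BMP4 minus noggin, where the median size was 0.07 against 0.04 for all genes. It also does so for BMP4 minus untreated, with 64.3% of sterol members at or below 0.10 against 78.8% of all genes. For BMP4 minus noggin the last glycolytic step, at 0.39, is Hk1 and the last sterol step, at 0.27, is Insig1.

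Further genes of the pathways were taken from lists of textbook pathway members. Of 29 other glycolytic and pyruvate genes 20 were above the floor, and 1 was at least 1.2-fold higher with BMP4. This was Slc16a3, the lactate exporter MCT4, which measured 7.99 untreated, 8.31 with BMP4 and 7.99 with noggin. Pkm, the pyruvate kinase of growing cells, measured 11.77, 11.80 and 11.80. None of the 20 reached 1.2-fold with noggin, and the median was 0.00 in both comparisons.

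Of 23 other hypoxia-linked genes 20 were above the floor. By representative probe set none reached 1.2-fold against the untreated array, where 3.83% of all genes did with BMP4 and 2.79% with noggin. Hif1a, the oxygen-regulated subunit, measured 9.10 untreated, 9.10 with BMP4 and 9.14 with noggin. Its other probe sets gave -0.07 to 0.26 with BMP4, -0.12 to -0.07 with noggin and 0.00 to 0.38 for BMP4 minus noggin. Egln1, the main oxygen sensor, measured 7.86, 7.84 and 7.86 by its representative probe set. P4ha2, a collagen prolyl hydroxylase, measured 6.68, 6.90 and 6.52 and was 1.3-fold higher with BMP4 than with noggin. It was the only 1 of the 20 past 1.2-fold in that comparison, where 6.63% of all genes were. The list's medians were 0.00.

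Of 34 other genes of sterol and lipid synthesis 24 were above the floor, and 1 was at least 1.2-fold lower with BMP4. Of all 11595 genes above the floor 260 were, so a count of 1 in 24 is too small to set the list apart. Srebf1, which encodes SREBP-1, measured 8.35 untreated, 8.08 with BMP4 and 8.35 with noggin, a 1.21-fold lower value with BMP4. Srebf2, which encodes the SREBP that chiefly drives cholesterol genes, had 7.12 on all 3 arrays. The other probe set of Srebf2 differed by 0.15 with BMP4 and 0.02 with noggin. Fasn, the fatty acid synthase, measured 9.50, 9.30 and 9.76, so that it was 1.38-fold lower with BMP4 than with noggin. Fasn and Srebf1 were the 2 of the 24 at least 1.2-fold lower in that comparison, where 378 of all 11595 genes were. The list's median was 0.00 in both comparisons with the untreated array.

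Some facts of the arrays stand beside these values. All 10 ES cell markers were above the floor on each array, from 8.07 upwards, and of 10 fibroblast markers 6 or 7 were, with Col1a1, Col3a1 and Lum below it on every array. Of the 7 fibroblast markers above the floor on at least 1 array, 2 were at least 1.2-fold lower with BMP4. Among all 11595 genes above the floor 260 were. The lowest marker was S100a4 at -0.55, and the median was 0.00. For BMP4 minus noggin the median was -0.16. Both the count and the medians include Postn, which was kept through the noggin array alone. It measured 3.32 untreated, 3.00 with BMP4 and 3.55 with noggin. The part of the fibroblast markers in the members' differences was not tested. The 24 poly-A spikes, added to the RNA before labelling, had a median difference of -0.63 with BMP4 and -0.18 with noggin, while the 18 hybridisation spikes had medians of 0.01 and -0.01. The part of the spikes was not tested. The 3′ control probe set exceeded the 5′ one, in the order untreated, BMP4 and noggin, by 0.06, 0.09 and 0.10 for Gapdh, by 0.32, 0.21 and 0.37 for Actb, and by 1.51, 1.38 and 1.88 for Tfrc, so that the gap was widest on the noggin array for all 3 genes. Its part in the members' differences was not tested either. The 4 probe sets shared by several genes, 1 for Hk1 and 3 for Gapdh, gave differences from -0.21 to 0.02 with BMP4 and from -0.16 to 0.03 with noggin, and were left out of the counts.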

How the data were processed

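The authors deposited 1 table of log2 values per probe set, made with RMA per the submitters' processing notes; version, settings and build: not given in the sources used here. RMA normalizes arrays to like distributions, so a change in total RNA per cell would not show. Gene names came from the platform's annotation table: of 45101 probe sets, 34958 were paired with 1 gene (18194 genes), 932 with several and 9211 with none. Entrez identifiers of 34754 matched the RefSeq table. Values were used as deposited, with Python 3.11.15 and pandas 2.3.3; no test was possible with 1 array per group. The arithmetic was tested on simulated data. Alternatives were other floors, averaged or plain probe sets, probe sets as units, centring, loess (statsmodels 0.14.6, span 0.3), list means and limits of 1.1-fold and 1.5-fold. All members are named; of other pathway genes, those at or past 1.2-fold in any comparison and a few regulators. Members and lists were chosen with earlier results of these data known. Motifs were searched on both strands.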

Additional observations from a re-analysis of the deposited data

How the results depend on the processing

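The medians of the 3 member lists moved by less than the within-gene SD of probe sets under all 90 alternative values, and ranged from -0.07 to 0.07. Of the alternative counts of members at 1.2-fold, 83 stayed within 1.5 times the value reported and 16 did not. For the glycolytic list with BMP4, where the count is 0, it was 1 with probe sets averaged (all, or those above the floor) and 1 with plain probe sets (Pfkp when averaged, Slc2a3 when plain), 3 with probe sets as units and 2 at 1.1-fold. With noggin it was 1 with probe sets as units and 2 at 1.1-fold, and for BMP4 minus noggin, where it is 1, it was 4 with probe sets as units and 0 at 1.5-fold. For the sterol list, the count of 0 became 3 at 1.1-fold with BMP4 and 1 with all probe sets averaged with noggin, through a probe set of Fdps below the floor. Its count of 1 for BMP4 minus noggin became 2 with all probe sets averaged, with plain probe sets and with probe sets as units, 6 at 1.1-fold and 0 at 1.5-fold. For single members 38 alternative values moved by more than that SD and 676 did not, and none of the members past 1.2-fold changed sign. Some of these alternatives could not, or could barely, move a member. All 31 members were above the floor on all 3 arrays, so dropping the floor changed nothing, and centring shifted each comparison by 0.00. The numbers of unmoved values are therefore no measure of robustness. No paired analysis was possible because each group has 1 array. Arrays have no read depth, and differences of this size cannot be told from technical scatter here.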

Other observations

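Several other pathway genes had a probe set at or past 1.2-fold that was not the one representing the gene, and the 4 given here were picked with their values in view. For Egln1 the second probe set was 0.42 higher with BMP4 and equal with noggin. Mbtps1, the protease that makes the first cut in SREBP, had other probe sets from -0.04 to 0.43 with BMP4 and from -0.41 to 0.00 with noggin, while its representative differed by 0.00 and 0.06. The 2 other probe sets of Scd2, a stearoyl-CoA desaturase, were higher with BMP4 by 0.31 and 0.45, and its representative by 0.04. Acaca, acetyl-CoA carboxylase, was lower with BMP4 by its representative, at -0.17, and higher by its second probe set, at 0.18. The second probe set was -0.38 with noggin, so that it was 0.56 higher with BMP4 than with noggin.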
